A study of Equus caballus with 3 samples.

Results

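Activating transcription factor 5 (ATF5) and 8 further genes of the integrated stress response were examined in equine mesenchymal stromal cells (MSCs): ATF4, DDIT3, TRIB3, ASNS, CHAC1, SESN2, PSAT1 and HSPA5. These 9 genes were chosen by name from 29927 gene symbols or identifiers in the deposited matrices, with their expression in the same libraries already known, so their levels between sources are a description and not a test. All 9 had a row in each of the 3 matrices. In the EquCab3.0 annotation used by the authors, ATF5 lies on chromosome 10, ATF4 on 28, DDIT3 on 6, TRIB3 on 22, ASNS on 4, CHAC1 on 1, SESN2 on 2, PSAT1 on 23 and HSPA5 on 25.

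The integrated stress response starts when one of several kinases phosphorylates the translation initiation factor eIF2 after amino acid shortage, misfolded protein in the endoplasmic reticulum, viral RNA or haem deficiency. General translation then falls, while mRNAs with suitable upstream reading frames, such as those of the bZIP transcription factors ATF4 and ATF5, are translated more. ATF4 raises transcription of genes for amino acid synthesis, amino acid transport and tRNA charging, and also of DDIT3, TRIB3 and CHAC1, so that transcript levels of its targets are commonly used as a readout of the response, whereas the activity of ATF4 and ATF5 themselves is largely set at translation and is not seen in mRNA counts.

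The cells of 1 healthy warmblood mare, 10 years old, had been grown from her fat (adipose tissue, AT), from marrow of bone (BM) and from venous blood (peripheral blood, PB), and captured after 2 passages with the 10X Genomics 3′ end chemistry, version 2. No treatment or genetic alteration was applied, and each source was represented by 1 library. Sources followed the sample titles, although the source name given with all 3 samples is mononuclear cells of blood. A difference between sources is therefore also a difference between libraries and cultures of a single animal, and these cannot be told apart.

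After restriction to barcodes with 2500 to 15000 unique molecular identifiers (UMIs) and at most 3% mitochondrial UMIs, 5403 AT, 5580 BM and 5318 PB cells were kept, with medians of 6874.5 to 7750 UMIs per cell and 39980656 to 41622445 UMIs per source. The 9 mesenchymal stromal markers were each above 5 counts per 1000000 UMIs (CPM) in every source and summed to 18644, 10547 and 18054 CPM in AT, BM and PB. The collagen genes COL1A1, COL1A2 and COL3A1 made up most of each sum, at 2700, 3879 and 1553 CPM in BM. Only ITGB1 (197, 313 and 204 CPM) and PDGFRB (44.7, 69.0 and 37.9 CPM) were highest in BM. Of 6 haematopoietic markers the matrices held 5, with sums between 4.997 CPM in PB and 11.2 CPM in BM, nearly all of it CD68, while the defining marker PTPRC was at 0 in all 3 sources. The 3 endothelial markers summed to at most 0.192 CPM, and of 3 epithelial markers the matrices held EPCAM, at 0 in all 3 sources, and CDH1, at 0.0240 CPM in PB and 0 in the others. Cells called G1 made up 58.8% of AT, 67.5% of BM and 60.8% of PB cells, and the median mitochondrial share was 1.42%, 1.96% and 1.55%. Between 72 and 77 kept barcodes of each source occurred among the kept barcodes of another source, and 5279 of the 6155 AT barcodes below the lower UMI limit had the sequence of a kept PB barcode. Intervals below are 95% intervals (exact Poisson for CPM, Clopper-Pearson for shares of cells, conditional binomial for differences) and cover counting error only. A sum over cells does not separate fewer expressing cells from less RNA per cell.

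ATF5, a bZIP factor related to ATF4 that has also been linked to the mitochondrial unfolded protein response, showed the widest spread of the 9 between sources. It stood at 408 CPM in AT (402 to 415), 36.6 CPM in BM (34.8 to 38.5) and 97.4 CPM in PB (94.5 to 100.5). The order was thus AT, PB, BM, with no overlap of the counting intervals. ATF5 was detected with at least 1 UMI in 71.1% of AT cells, 17.5% of BM cells and 36.3% of PB cells. With every cell thinned to 2500 UMIs, these shares were 51.5%, 7.40% and 18.0% in the same order. On the scale of log2(CPM + 1), AT was 3.44 above BM (10.9-fold) and 2.06 above PB (4.16-fold), and PB was 1.39 above BM (2.62-fold). Of the 9105 genes with at least 5 CPM in 1 source, 99.2% differed less between AT and BM, 96.2% less between AT and PB and 95.4% less between PB and BM. In the thinned counts the variance of ATF5 was 1.76, 1.33 and 1.52 times its mean in AT, BM and PB, above the ratio of 95.1%, 98.4% and 98.7% of genes with a mean within 1.5-fold. The cultures held no cells in which these genes should be absent, so the share of cells with a UMI from free RNA was not estimated.

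**Figure D1:**
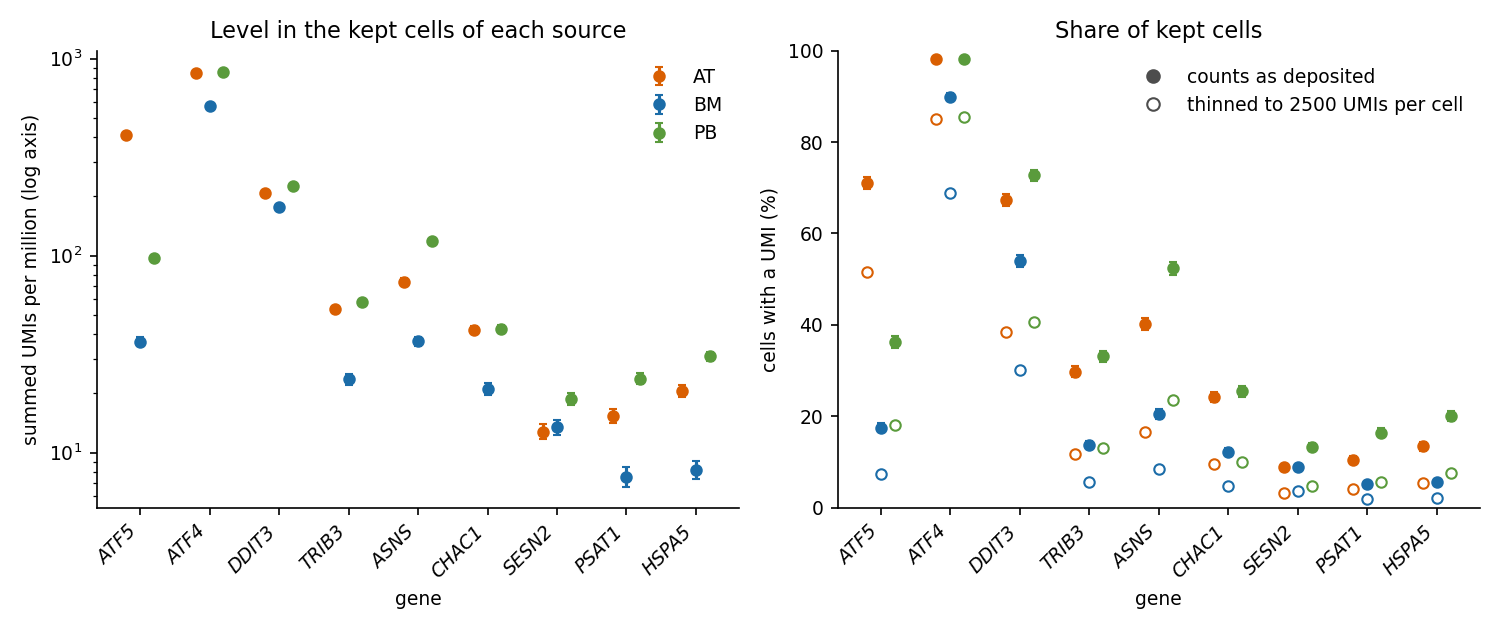
Level of the 9 genes in AT, BM and PB cells as summed CPM on a log axis (left) and share of cells with at least 1 UMI (right), with open points for counts thinned to 2500 UMIs per cell; bars are 95% counting intervals, 1 library per source. ATF5 is spread from 36.6 to 408 CPM, while ATF4 lies between 573 and 850.2 CPM, and BM is lowest for 8 of the 9 genes (all 9 with TMM factors).

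ATF4, the central transcription factor of the response, did not share this order. Its level was 841 CPM in AT, 573 CPM in BM and 850.2 CPM in PB, so that AT and PB were side by side and BM was lower. ATF4 was detected in nearly every cell, in 98.1% of those from AT, 89.9% from BM and 98.1% from PB. The difference of AT from BM was 0.55 on the log2 scale (0.53 to 0.58), and that of AT from PB was -0.01 with an interval that spans 0 (-0.04 to 0.01). DDIT3, which encodes the pro-apoptotic factor CHOP, was the least spread between sources, at 207 CPM in AT, 177 CPM in BM and 226 CPM in PB. DDIT3 nevertheless had the highest single-cell counts of the 9, with up to 51, 52 and 36 UMIs in 1 cell. The BM cells varied most, with a thinned variance 1.77 times the mean, above the ratio of 97.5% of genes of like mean. TRIB3, a pseudokinase induced by ATF4 and DDIT3 that acts back on the pathway, was at 53.3 CPM in AT, 23.6 CPM in BM and 58.0 CPM in PB. TRIB3 levels of AT and PB therefore differed by 0.12 on the log2 scale, whereas AT was 2.21-fold and PB 2.40-fold above BM.

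Of the metabolic genes among the 9, ASNS and PSAT1 were highest in PB. ASNS, which makes asparagine from aspartate, was at 73.8 CPM in AT, 36.7 CPM in BM and 119 CPM in PB, with a UMI in 40.1%, 20.5% and 52.4% of cells. PSAT1, an aminotransferase of serine synthesis, was at 15.4, 7.53 and 23.7 CPM in AT, BM and PB. For both genes the order was PB, AT, BM with separate counting intervals, unlike that of ATF5. CHAC1, which degrades glutathione, was at 42.1 CPM in AT, 21.0 CPM in BM and 42.2 CPM in PB, so AT and PB could not be told apart (interval of the log2 difference -0.10 to 0.09). SESN2, a sestrin that restrains the growth kinase mTORC1, was at 12.8 CPM in AT, 13.4 CPM in BM and 18.8 CPM in PB. SESN2 was the single gene of the 9 with a lower value in AT than in BM, by a difference whose interval spans 0 (-0.07, -0.25 to 0.10) and which was 0.19 with TMM factors. HSPA5 encodes the endoplasmic reticulum chaperone BiP, which is driven mainly by the ATF6 and XBP1 arms of the unfolded protein response. Its level was 20.6 CPM in AT, 8.18 CPM in BM and 30.8 CPM in PB, the same order as for ASNS and PSAT1. HSPA5 was sparse, with a UMI in 13.4%, 5.61% and 19.9% of cells. How fully the counting captured its reads was not tested. These are UMI counts from the 3′ end without correction for transcript length, and levels are compared here within a gene only.

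Read by a fixed rule of size, a difference over 1 in log2(CPM + 1), 3 of the 9 genes were higher in AT than in BM (ATF5, TRIB3 and HSPA5), where 2.55% of the 9105 genes passed in that direction, and 0 were higher in BM, where 8.87% did. Just under the threshold lay ASNS at 0.99, CHAC1 at 0.97 and PSAT1 at 0.94. ATF5 alone was past 1 in AT over PB, against 4.38% of all genes, and none of the 9 was past 1 in PB over AT, against 6.24%. In PB over BM, 5 of the 9 passed (ATF5, TRIB3, ASNS, PSAT1 and HSPA5) against 2.36% of all genes, and 0 in BM over PB against 6.34%. The median over the 9 genes was 0.97 for AT minus BM, -0.12 for AT minus PB and 1.26 for PB minus BM, beside -0.25, -0.03 and -0.21 over all 9105 genes. Relative to the median gene, all 9 were thus higher in AT than in BM and in PB than in BM, and 3 of 9 were higher in AT than in PB. The 3 comparisons share libraries, and the members were picked for these levels, so the counts describe them and no more. TMM factors, which equalise the bulk of genes between libraries, raise AT by 0.28 and PB by 0.23 over BM. With them ASNS, CHAC1 and PSAT1 also passed and the AT over BM count was 6, where 366 of the 9105 genes passed in that direction. Without them 232 genes did. Over all genes, the share of calls that were higher in the first source went from 22.3% to 39.2% for AT and BM. For PB and BM it went from 27.1% to 44.4%. ATF4 and CHAC1 turned sign for AT minus PB, to 0.03 and 0.04. With a pseudocount of 25 CPM the AT over BM count was 1, and the PB over BM count was also 1. The share of all genes at that pseudocount is not given here.

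**Figure D2:**
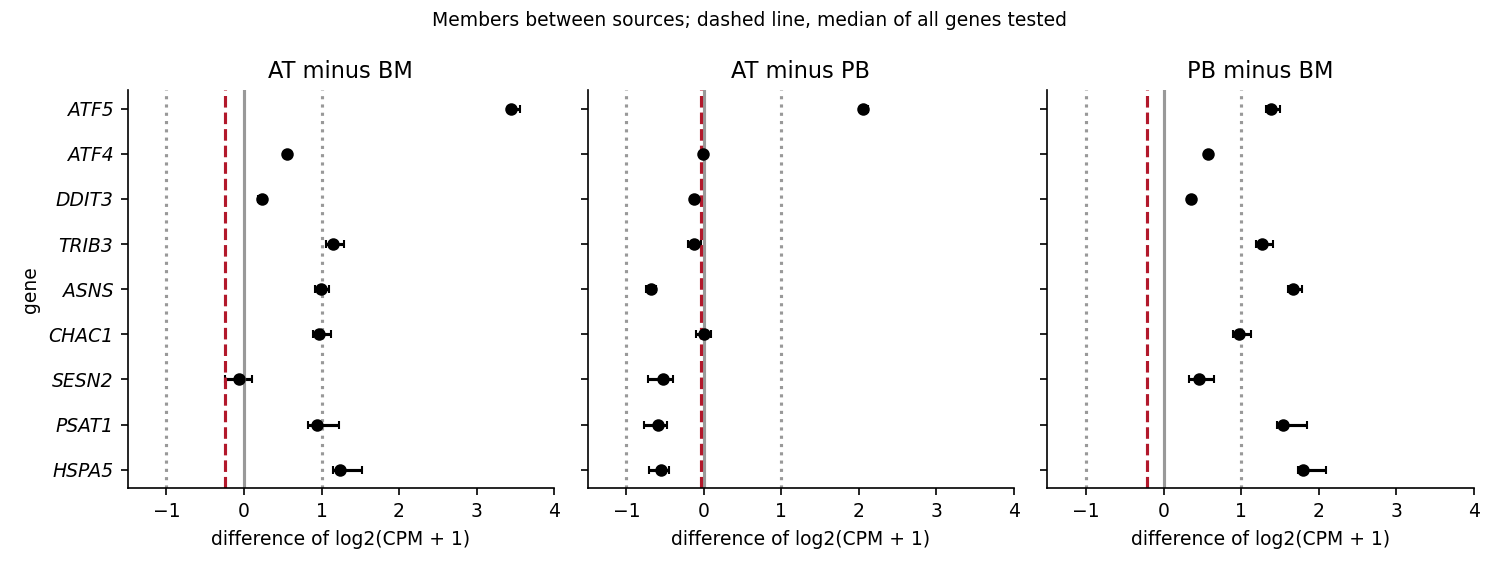
Difference of log2(CPM + 1) for each gene between the 3 pairs of sources, with 95% counting intervals computed without the pseudocount, dotted lines at 1 and -1 and a dashed line at the median of 9105 genes. ATF5 is at 3.44, 2.06 and 1.39; in AT minus PB every other gene lies below 0, down to -0.68 for ASNS (with TMM factors ATF4 and CHAC1 lie at 0.03 and 0.04).

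Within each source, ATF5 was only loosely tied to the other genes from cell to cell. Pearson's r of log2(UMIs per 10000 + 1) between ATF5 and the 8 others across 5403 AT cells was 0.16 with ATF4, 0.16 with DDIT3 and 0.07 with TRIB3, but -0.02 with ASNS and -0.03 with PSAT1. In AT, 2 of the 8 reached 0.1, where 1.57% of 7143 genes detected in 5% of cells or more did, and ATF4 and DDIT3 ranked 29 and 33 among these, with TRIB3 at rank 247. Across 5580 BM cells r was 0.11 with DDIT3, 0.08 with ATF4, 0.08 with TRIB3 and 0.06 with ASNS. DDIT3 was the single one of 8 at 0.1 or more in BM, against 0.0645% of 7753 genes, with a rank of 4, while ATF4 ranked 15 and TRIB3 16. Across 5318 PB cells r was 0.09 with DDIT3, 0.08 with ATF4 and 0.08 with TRIB3, ranks 23, 37 and 44 of 7404 genes, and -0.04 with ASNS, rank 7110. None of the 8 reached 0.1 in PB, against 0.0675% of genes. DDIT3 and ATF4 thus stood near the top of the ranking in each source, and TRIB3 in BM and PB, and HSPA5 did not, with r of at most 0.03. All of these values are weak and come from sparse counts of cells that share 1 library per source. The r of ATF5 with log10 total UMIs was 0.10, 0.09 and 0.07 in AT, BM and PB, and after its linear removal 2, 1 and 0 of the 8 reached 0.1, as before. In counts thinned to 2500 UMIs, which also add sampling noise, none did. The share of all genes in either setting is not given here.

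Among genes detected in 25% of cells or more, those with the highest r with ATF5 in AT were MFAP4 (0.25), a microfibril-associated glycoprotein, RPL4 (0.22), EEF1A1 (0.21), the Rfam entry RF02216 (0.21) and NUPR1 (0.21), a stress-induced chromatin protein that responds to ATF4. In BM they were EIF4EBP1 (0.12), a translational repressor and ATF4 target, GHITM (0.12), OCIAD2 (0.12), DDIT3 (0.11) and NUPR1 (0.10). In PB they were RF02216 (0.12), COL1A1 (0.12), COL1A2 (0.12), RPL13A (0.11) and RF00581 (0.11). NUPR1 was among the first 5 in AT and BM, and RF02216 in AT and PB. Rfam entries denote small non-coding RNAs that often lie in introns of other genes, so their reads may overlap with those of a host gene.

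Grouping cells by their ATF5 count regroups the same counts that gave r, so it shows levels and adds no separate support. In AT, DDIT3 was at 165 CPM in 1563 cells without an ATF5 UMI and at 235 CPM in 2409 cells with 3 or more, and ATF4 at 755 and 891 CPM. In BM, DDIT3 was at 168 CPM in 4604 cells without and at 349.9 CPM in 102 cells with 3 or more. ASNS was at 35.3 and 71.8 CPM in these cells, and PSAT1 at 7.25 and 18.2 CPM, the latter from 16 UMIs (10.4 to 29.6). In PB, DDIT3 was at 213 CPM in 3387 cells without and at 266 CPM in 508 cells with 3 or more. DDIT3 was therefore higher in ATF5-rich cells of all 3 sources, with the widest gap in BM. ASNS went the other way in AT (79.6 against 68.1 CPM) and in PB (123 against 111 CPM). The ATF5-rich cells were also deeper, with medians of 7878, 8246.5 and 8595 UMIs against 6614, 6695 and 7424, and more often called G1 (66.9%, 84.3% and 68.7% against 50.4%, 69.0% and 59.5%). BM cells with 1 or 2 ATF5 UMIs went the other way, with 57.4% (706 cells) and 58.9% (168 cells) called G1. In counts thinned to 2500 UMIs, which leave 732 AT, 13 BM and 75 PB cells with 3 or more ATF5 UMIs, the log2 difference of DDIT3 was 0.46 in AT (0.31 to 0.62) and 1.67 in BM (0.92 to 2.34), while the intervals of DDIT3 in PB (-0.19 to 0.65) and of ASNS in AT (-0.45 to 0.13), PB (-1.16 to 0.31) and BM (-2.27 to 2.64) spanned 0. PSAT1 had 0 UMIs in those 13 BM cells. The part of phase in these gaps was not tested.

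Among themselves, the 9 genes varied together most in BM. Of 36 pairs, 16 had an r of at least 0.1 in BM, where 0.665% of all pairs of genes detected in 5% of cells or more did, 5 in AT, against 0.249%, and 4 in PB, against 0.332%, and the median r was 0.08 in BM, 0.03 in AT and 0.03 in PB. ATF4 with DDIT3 was the highest pair in each source, at 0.37 in BM, 0.19 in AT and 0.21 in PB. In BM, TRIB3 (0.23), ASNS (0.21) and CHAC1 (0.20) followed as partners of ATF4. HSPA5 stayed between -0.02 and 0.02 with every other gene in BM. The BM median was also 0.08 in G1 cells only, and 0.04 in counts thinned to 2500 UMIs.

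**Figure D3:**
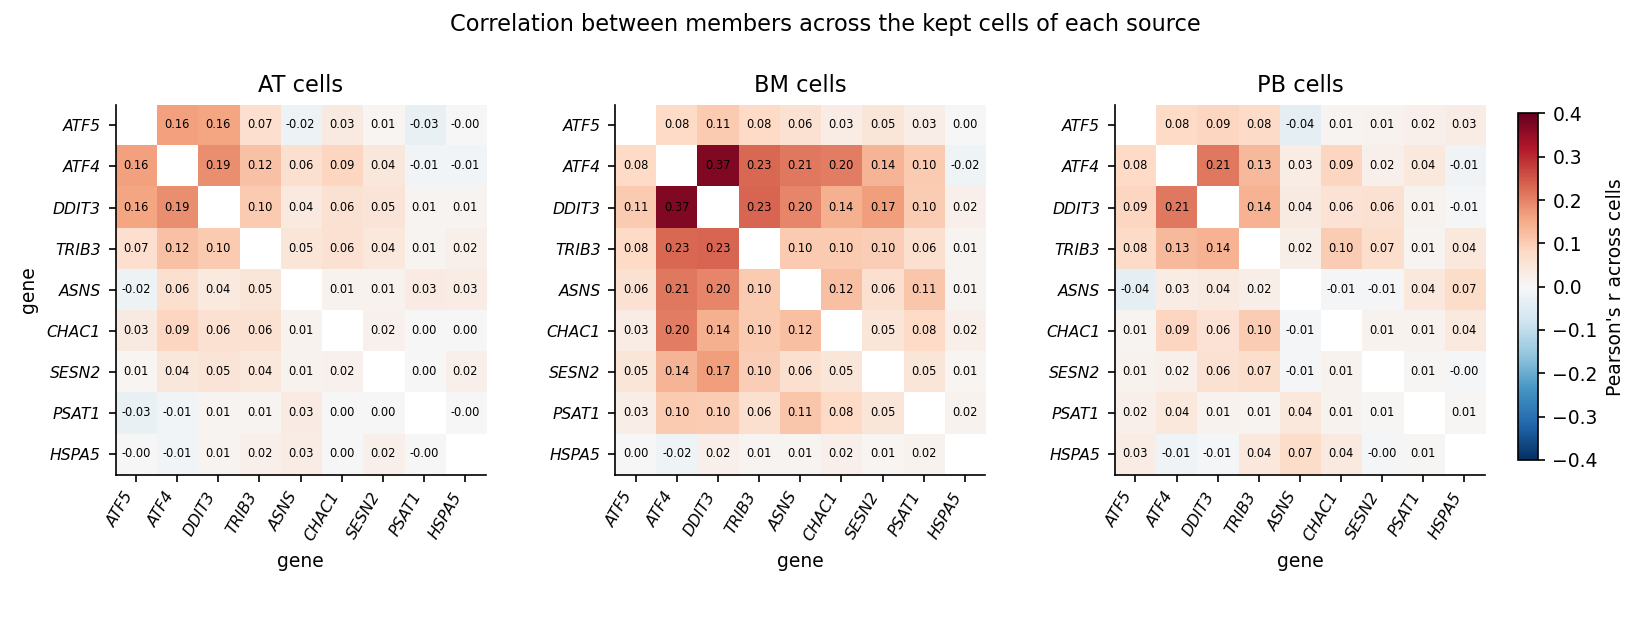
Pearson's r between each pair of the 9 genes across the kept cells of AT (5403), BM (5580) and PB (5318), colour and number giving r. The BM block from ATF4 to CHAC1 is the darkest, led by ATF4 with DDIT3 at 0.37, and the highest value in the HSPA5 row is 0.07, with ASNS in PB.

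A grouping that leaves out each gene's own counts showed how far the levels spread within a source. For each gene, cells were ranked by the summed UMIs per 10000 of the other 8 genes and split into quintiles. In BM, TRIB3 went from 2.11 CPM in the lowest quintile to 55.6 CPM in the highest, CHAC1 from 1.61 to 39.9 CPM and PSAT1 from 1.24 to 13.3 CPM. DDIT3 went from 54.5 to 344 CPM, ASNS from 10.2 to 63.5 CPM, SESN2 from 4.10 to 26.0 CPM and ATF4 from 363 to 885 CPM. These 7 genes and ATF5 were higher at every step between BM quintiles, each by more than 1 on the log2 scale from lowest to highest, where 1.78% of all genes outside the ranking were, summed over the 9 rankings. HSPA5 was the exception in BM, at 9.09 CPM (73 UMIs) in the lowest and 7.74 CPM (60 UMIs) in the highest quintile. ATF5 itself went from 26.0 to 65.1 CPM in BM, from 317 to 521 CPM in AT and from 69.9 to 124 CPM in PB. For ATF5 the highest BM quintile (59.6 to 71.1) and the lowest PB quintile (64.3 to 75.9) thus had overlapping counting intervals, while for DDIT3 the highest BM quintile was above the highest quintiles of AT (291 CPM) and PB (292 CPM).

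In AT and PB the same ranking gave flatter profiles. The ranking weighs genes by their counts, so ATF4 (841, 573 and 850.2 CPM in AT, BM and PB) is the largest part for every other gene. ATF5, at 408, 36.6 and 97.4 CPM, weighs more in AT. The effect of this make-up on the profiles was not tested. In AT, 2 of the 9 genes differed by more than 1 between the end quintiles, DDIT3 (119 to 291 CPM) and TRIB3 (34.5 to 79.4 CPM), against 0.382% of all genes, and in PB 1 did, TRIB3 (30.0 to 83.6 CPM), against 0.219%. ASNS was at 67.3 and 77.6 CPM in AT, a log2 difference of 0.20 (0.03 to 0.38), and at 111 and 114 CPM in PB (-0.09 to 0.18), and PSAT1 was at 15.8 and 15.1 CPM in AT. With 3 equal groups of cells in place of quintiles, the count was 0 in AT, 7 in BM and 1 in PB, against 0.129%, 1.32% and 0.0525% of all genes, and ATF5 in BM was at 0.94, no longer past 1. In G1 cells only, ranked in the same way, the log2 difference in BM was 3.85 for TRIB3, 3.56 for CHAC1, 2.27 for DDIT3, 1.72 for ATF5 and -0.08 for HSPA5. The quintiles are cuts of a continuous value, and 753 AT, 540 BM and 890 PB cells lay within 10% of the limit of the highest ATF5 quintile.

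**Figure D4:**
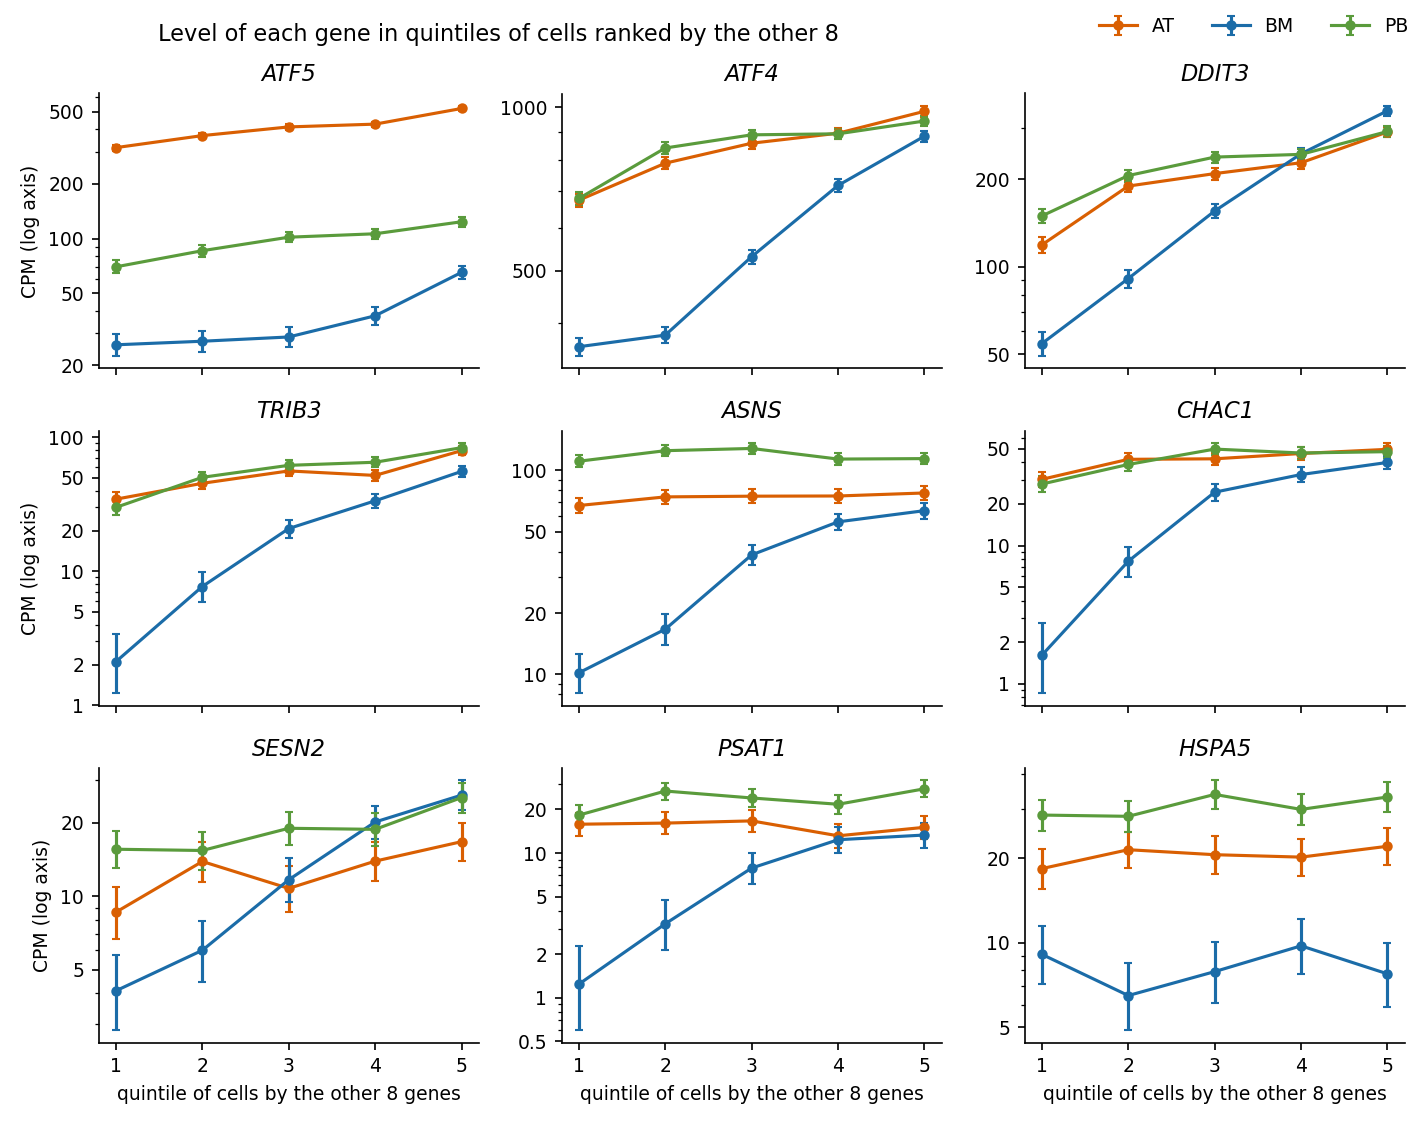
CPM of each gene (log axes, own range per panel) in quintiles of the cells of a source ranked by the other 8 genes, with 95% counting intervals. BM spans 2.11 to 55.6 CPM for TRIB3 and 1.61 to 39.9 CPM for CHAC1, ATF5 keeps its order of sources in every quintile, and HSPA5 in BM lies at 9.09 and 7.74 CPM at the ends.

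Cells at the 2 ends of this range differed in other respects as well. With cells ranked by all 9 genes together, the summed level went from 143 to 1973 CPM between the lowest and highest BM quintiles, from 703 to 2855 CPM in AT and from 626 to 2389.6 CPM in PB. A rise in this sum follows from the ranking itself, which sorts cells on the same counts. The highest BM quintile held 87.4% G1 cells and the lowest 49.6%, against 67.4% and 46.2% in AT and 67.5% and 47.3% in PB. The summed mesenchymal markers were at 13226 CPM in the highest and 7947 CPM in the lowest BM quintile, 20308 and 16583 CPM in AT and 19802 and 14931 CPM in PB. Over each source as a whole, collagen genes made up most of this sum. Median depth hardly moved, at 6985.5 UMIs in the lowest and 6788 UMIs in the highest BM quintile, and the median mitochondrial share was 2.03% and 1.88%. The part of cell cycle phase and of the summed marker level in the range of the 9 genes was not tested, beyond the G1 values above.

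The wider pathway was read from 10 lists of 108 genes, none of them among the 9, of which 100 were in the matrices and 94 had at least 5 CPM in 1 source. The lists and their members were set with earlier results of these libraries known. Of the 94, the genes past a difference of 1 were 3 in AT over BM (GPT2, NUPR1 and FGF21), against 2.55% of all genes, and 1 in BM over AT (SLC38A2), against 8.87%. None was past 1 in AT over PB, against 4.38%, and 3 were in PB over AT (SLC7A11, DDIT4 and VEGFA), against 6.24%. In PB over BM there were 5 (SLC7A11, IARS, NUPR1, VLDLR and FGF21), against 2.36%, and in BM over PB 1 (SLC38A2), against 6.34%. On the CPM scale the AT over BM count is close to the share of all genes. The list counts were not repeated with TMM factors, which raise AT by 0.28 over BM. NUPR1 was at 716 CPM in AT, 229 CPM in BM and 546 CPM in PB. FGF21, a stress-induced hormone, was at 7.25, 0.770 and 6.58 CPM, and GPT2, which makes alanine from pyruvate, at 18.0, 6.16 and 8.96 CPM. SLC38A2, a transporter of neutral amino acids, ran opposite at 96.0, 207 and 74.9 CPM.

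Among the genes upstream of ATF4, the 4 eIF2 kinases summed to 93.7, 98.7 and 80.5 CPM in AT, BM and PB, with 0 of 4 past 1 in any comparison. EIF2AK4, the GCN2 kinase of amino acid shortage, was at 52.5, 52.6 and 36.7 CPM, and EIF2AK3, the PERK kinase of the endoplasmic reticulum, at 7.33, 9.64 and 8.48 CPM. PPP1R15A, the stress-induced subunit of the eIF2 phosphatase, was at 46.0, 62.9 and 57.9 CPM. None of the 4 phosphatase regulators and none of the 5 eIF2 or eIF2B subunits with at least 5 CPM passed 1. Between 2.36% and 8.87% of all genes passed in a given direction, so that a count of 0 in lists of 4 or 5 genes says little.

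Among target groups, the 13 genes of tRNA charging and export had a median of 0.40 for AT minus BM and 0.69 for PB minus BM. Over all genes the medians were -0.25 and -0.21. WARS was at 256, 148 and 270.1 CPM in AT, BM and PB, SARS at 139, 90.6 and 146 CPM and GARS at 300.3, 228 and 391 CPM. IARS was the single one of the 13 past 1, in PB over BM, at levels of 6.49 and 1.89 CPM. The 11 genes of amino acid and one-carbon synthesis had medians of 0.04 and 0.48. For the 7 amino acid transporters they were 0.46 and 0.51, and for the 15 other targets and partners of ATF4 -0.22 and 0.41. In the latter list NUPR1 and FGF21 were higher in AT than in BM, whereas SQSTM1, an autophagy receptor, was at 106, 182 and 124 CPM and DDIT4, an inhibitor of mTORC1, at 208, 276 and 513 CPM in AT, BM and PB. The medians were 0.21 and 0.07 for endoplasmic reticulum chaperones, -0.05 and 0.07 for mitochondrial and -0.35 and -0.23 for cytosolic ones. MTHFD2, a mitochondrial folate enzyme, was at 135, 149 and 254 CPM. EIF4EBP1 was at 769, 398 and 732 CPM, just under 1 in AT over BM (0.95). The 17 endoplasmic reticulum chaperones and folding genes had 0 past 1 in any pair, with HSP90B1 at 740.0, 502 and 532 CPM, and the same held for the 8 mitochondrial chaperones and proteases and the 10 cytosolic heat shock genes. Correlation with ATF5 was likewise weak over the lists. An r of at least 0.1 was reached in AT by 4 of 86 list genes detected in 5% of cells or more, against 1.57% of all genes, namely NUPR1 (0.21), HSPD1 (0.16), DNAJB9 (0.14) and EIF4EBP1 (0.13). HSPD1, the mitochondrial chaperonin, was the single one of 8 in its list, whose median r was 0.0054. In BM 2 of 88 did, against 0.0645%, EIF4EBP1 (0.12) and NUPR1 (0.10), and in PB 0 of 90, against 0.0675%. HSP90AA1 was at -0.15 in AT and HSP90B1 at -0.13.

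Along the quintiles of cells ranked by all 9 genes, more list genes differed in BM than in the other sources. The end quintiles of BM were also further apart by ratio in the ranked sum, and no adjustment was made for this. In BM, 24 of the 94 list genes were more than 1 higher in the highest than in the lowest quintile, where 2.00% of 9105 genes were. The same count was 2 of 94 in AT, against 0.483% of all genes, and 2 of 94 in PB, against 0.351%. The 24 in BM comprised 6 of 7 amino acid transporters and 7 of 13 genes of tRNA charging and export. The rest were 6 of 15 other targets and partners of ATF4 and 5 of 11 genes of amino acid and one-carbon synthesis. The 24 included 0 of 17 endoplasmic reticulum chaperones, 0 of 8 mitochondrial and 0 of 10 cytosolic chaperone genes. They also included 0 of 4 eIF2 kinases, 0 of 4 phosphatase regulators and 0 of 5 eIF2 or eIF2B subunits. NUPR1 went from 65.5 to 472 CPM, MTHFD2 from 48.3 to 257 CPM and EIF4EBP1 from 179 to 676 CPM between the end quintiles of BM. SARS went from 40.3 to 148 CPM, WARS from 84.0 to 226 CPM and SLC1A5, a glutamine transporter, from 16.9 to 47.4 CPM. In AT, MTHFD2 was at 134 and 134 CPM, SARS at 128 and 148 CPM, EIF4EBP1 at 634 and 888 CPM and NUPR1 at 497 and 973 CPM. In PB, MTHFD2 was at 201 and 269 CPM, SARS at 113 and 158 CPM, EIF4EBP1 at 578 and 811 CPM and NUPR1 at 337 and 689 CPM. HSP90B1 ran the other way in BM, at 554 CPM in the lowest and 439 CPM in the highest quintile, and HSPH1 and HSP90AA1 were the 2 list genes of 94 more than 1 lower, against 5.02% of all genes, while 0 were in AT, against 2.93%, and 0 in PB, against 3.49%. In G1 cells alone, 32, 2 and 0 of the 94 list genes passed in BM, AT and PB, against 1.81%, 0.516% and 0.220% of all genes.

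Cell cycle phase, called from S and G2M gene sets, went with most of the members mainly in BM, but not with ATF5. In BM, DDIT3 was at 229 CPM in G1 cells and 86.3 CPM in S and G2M cells, a log2 difference of -1.40, TRIB3 at 29.7 and 13.0 CPM (-1.13) and ASNS at 44.7 and 22.9 CPM (-0.94). ATF4, CHAC1, SESN2 and PSAT1 were also lower in BM cells called S or G2M, by differences from -0.93 to -0.69, and HSPA5 differed by -0.23 with an interval that spans 0. ATF5 was at 459 CPM in G1 and 334 CPM in S and G2M cells of AT (-0.46), and at 105 and 86.2 CPM in those of PB (-0.28). Its difference was smallest in BM (-0.19, -0.35 to -0.04). There it was lower in cells called S (29.6 CPM, 25.9 to 33.6), whereas cells called G2M (38.1 CPM) were level with G1 cells (38.4 CPM). In AT, ASNS (71.0 and 78.0 CPM), PSAT1 (13.8 and 17.7 CPM) and HSPA5 (19.1 and 22.7 CPM) were higher in cells called S or G2M, while ATF4 (-0.17, -0.21 to -0.14), DDIT3 (-0.24, -0.31 to -0.18) and CHAC1 (-0.26, -0.41 to -0.12) were lower and the intervals of TRIB3 and SESN2 spanned 0. In PB the differences of all 9 lay between -0.32 and -0.03. Within G1 cells ATF5 was at 459, 38.4 and 105 CPM and TRIB3 at 53.0, 29.7 and 62.2 CPM in AT, BM and PB, in the order seen over all cells, but the log2 difference of TRIB3 between AT and BM was 0.81 and no longer past 1. DDIT3, in contrast, was at 221, 229 and 245 CPM. On the CPM scale, the lower BM level over all cells was thus not seen against AT in G1 cells. The lower BM level remained against PB, with counting intervals of 224 to 235 CPM in BM and 239 to 251 CPM in PB. TMM factors, which raise AT by 0.28 and PB by 0.23 over BM in all cells, were not applied to G1 cells.

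Clusters were made within each source without the 9 genes and the list genes among the variable features, giving 7 clusters in AT, 7 in BM and 10 in PB. ATF5 ranged from 180.5 CPM to 509 CPM over the AT clusters, from 25.9 to 47.2 CPM over the BM clusters and from 43.5 to 149.7 CPM over the PB clusters. The lowest AT cluster, 390 cells that were all called S or G2M, had a counting interval (167 to 195) that overlapped with that of the highest PB cluster, of 196 cells (130 to 171). In BM the largest cluster, 1683 cells of which 7.37% were in S or G2M, had the highest levels of 7 genes: ATF4 at 808 CPM, DDIT3 at 286 CPM, TRIB3 at 42.4 CPM, CHAC1 at 36.3 CPM, SESN2 at 21.7 CPM, PSAT1 at 14.2 CPM and ATF5 at 47.2 CPM. For ATF4 and DDIT3 that cluster was near or above the whole of AT (841 and 207 CPM), but its ATF5 level stood against 408 CPM in AT. A BM cluster of 652 cells, 90.2% in S or G2M and led by CALCA, EMB, IGFBP5 and HMX2, had the lowest levels of ATF4 (299 CPM), DDIT3 (43.7 CPM), TRIB3 (6.98 CPM), ASNS (12.2 CPM), SESN2 (6.17 CPM), PSAT1 (1.79 CPM) and HSPA5 (5.68 CPM). Its ATF5 level, 39.3 CPM (34.5 to 44.6), did not differ from that of BM as a whole (36.6 CPM) beyond counting error. A second BM cluster, 548 cells with 99.5% called S or G2M, held more of these genes, with ATF4 at 479 CPM, DDIT3 at 97.2 CPM and TRIB3 at 16.8 CPM. Another, 348 cells with 70.7% called S or G2M, was nearly as low as the cluster of 652 cells. It had ATF4 at 325 CPM, DDIT3 at 78.7 CPM, TRIB3 at 9.73 CPM and ASNS at 15.5 CPM, and the lowest CHAC1 of BM (9.29 CPM). Without the cluster of 652 cells, the median r over the 36 BM pairs was 0.09. The share of all genes highest in the cluster of 1683 cells, or lowest in that of 652 cells, was not counted. The members at these extremes are therefore a description of these genes only.

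ASNS and HSPA5 peaked elsewhere. In PB, a cluster of 335 cells with 43.6% in S or G2M had ASNS at 371 CPM, where the other 9 clusters had 50.2 to 179 CPM, and HSPA5 at 71.8 CPM, where the others had 19.4 to 33.5 CPM. ATF4 (699 CPM), DDIT3 (221 CPM) and ATF5 (75.3 CPM) were not raised in it. In BM, a cluster of 88 cells had the highest ASNS (121 CPM, 98.4 to 148) and HSPA5 (21.3 CPM, 12.4 to 34.0) of that source, with ATF4 at 424 CPM and ATF5 at 27.5 CPM. LAMP2, PIGK, PCOLCE and PLTP were among the 8 leading genes of both clusters, which were not named. In AT the highest ASNS (101 CPM), PSAT1 (21.7 CPM) and HSPA5 (29.4 CPM) were found in 1 cluster, 760 cells with 71.3% in S or G2M, and TRIB3 was almost level over the AT clusters, from 50.2 to 56.2 CPM. Clusters are parts of 1 library each, so these values carry no replicate error.

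**Figure D5:**
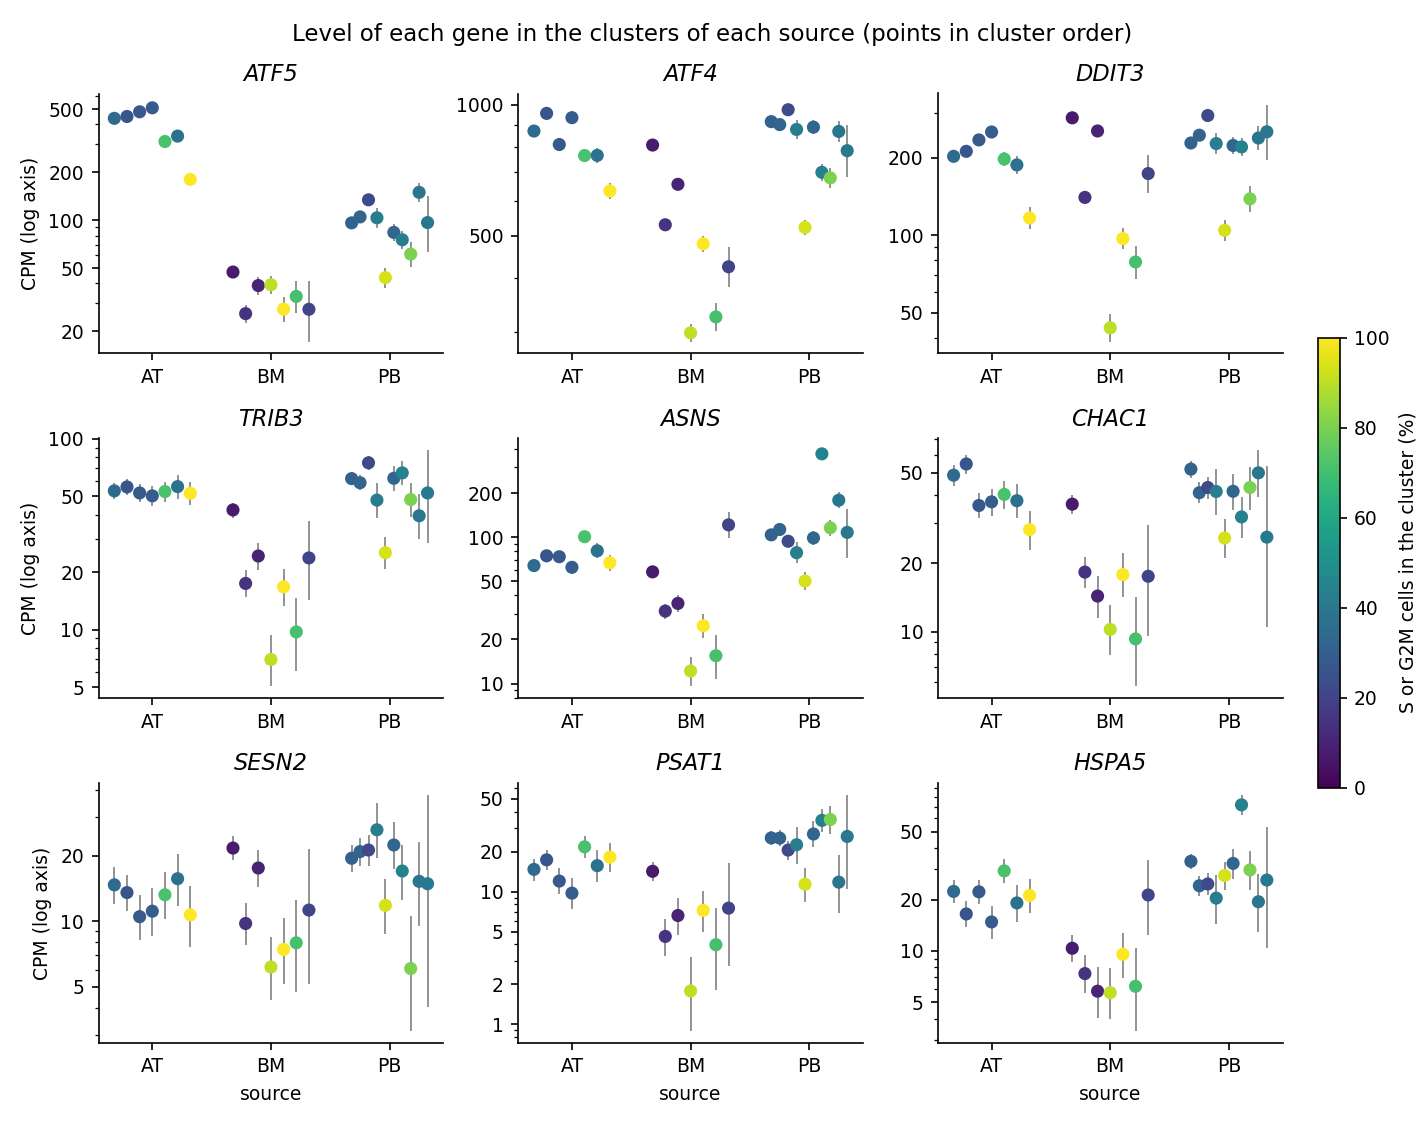
CPM of each gene (log axes, own range per panel) in the clusters of AT (7), BM (7) and PB (10), in cluster order, coloured by the share of cells called S or G2M, with 95% counting intervals. ATF5 in AT lies above every BM cluster, and its lowest AT cluster (180.5 CPM) is close to the highest PB cluster (149.7 CPM), a PB cluster of 335 cells stands out for ASNS (371 CPM) and HSPA5 (71.8 CPM), and the BM cluster of 652 cells is lowest for DDIT3 (43.7 CPM) and TRIB3 (6.98 CPM).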

How the data were processed

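The deposited values are whole-number counts of UMIs per gene and barcode, which the authors made with Cell Ranger on EquCab3.0 followed by ESAT, an end-sequence counter that also credits reads lying just past the annotated 3′ end. Stretches shared by sense and antisense genes thus carry no counts, and genes present in several identical copies hold scaled multimapping reads under 1 name. Cells were barcodes of 2500 to 15000 UMIs whose mitochondrial share did not exceed 3%. The study's multiplet caller was not applied here, and whether the matrices still contain the barcodes it called is not given in the sources used here.

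Levels are CPM of the summed counts, and differences are of log2(CPM + 1). With 39980656, 40239295 and 41622445 UMIs in AT, BM and PB, 3 UMIs correspond to 0.0750, 0.0746 and 0.0721 CPM. With 1 library per source no test was run. Clusters and phases came from Seurat 5.3.0, sctransform 0.4.2 and R 4.3.3, using 14, 23 and 20 principal components as in the study's methods, resolution 0.6, and variable features without the 9 genes and the list genes. Intervals used SciPy 1.17.1, Scrublet scores Scanpy 1.11.5 and TMM factors edgeR 4.0.16. The rule of size for differences between sources and the correlation with 1 gene were tested on simulated data. The other steps were not. Alternatives covered the barcode limits, shared barcodes, scaling, pseudocount, thinning, phase and clustering.

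The members, the lists and the settings were chosen with earlier results of these data known. Named were the 9 members, for each list the 2 genes with the highest and the 2 with the lowest difference of AT from the mean of BM and PB, the 2 with the highest r with ATF5 per source, and the 5 genes of the matrix with the highest such r. The text gives fewer list genes than this rule selects, and SLC38A2, VLDLR, SQSTM1, HSP90AA1, markers and leading genes of clusters were named after their values were seen. No sequence is shown, since none of the build used was in hand.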

Additional observations from a re-analysis of the deposited data

Results flagged for a closer look

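Opposite signs between sources were seen for ASNS and PSAT1 in 2 contrasts between cells. For cells called S or G2M against G1, the log2 difference of ASNS was 0.13 in AT and -0.94 in BM, and that of PSAT1 was 0.34 in AT and -0.87 in BM. For cells with 3 or more ATF5 UMIs against cells with none, ASNS differed by 1.003 in BM, -0.22 in AT and -0.15 in PB, and PSAT1 by 1.22 in BM and -0.34 in AT. As deposited, each of these values had a counting interval that excludes 0, but each comes from 1 library and the difference between sources was not tested. In counts thinned to 2500 UMIs, the intervals of the ATF5 contrast spanned 0 for ASNS in AT (-0.45 to 0.13), PB (-1.16 to 0.31) and BM (-2.27 to 2.64) and for PSAT1 in AT (-1.11 to 0.18), and PSAT1 had 0 UMIs in the 13 BM cells left with 3 or more ATF5 UMIs.

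The 9 genes were also present in barcodes left out by the limits. In those over 3% mitochondrial UMIs they summed to 1128 CPM in AT (38 barcodes), 782 CPM in BM (166) and 877 CPM in PB (49), against 1675, 897 and 1465 CPM in the kept cells. Above 15000 UMIs the sums were 1627, 642 and 1225 CPM. Below 2500 UMIs they were 1498 CPM in AT, 799.6 CPM in BM and 1441 CPM in PB. In these low barcodes ATF5 was at 134 CPM in AT (6155 barcodes, most with the sequence of a kept PB barcode), 35.1 CPM in BM and 89.5 CPM in PB, so that the AT value lay nearer to that of the PB cells (97.4 CPM) than to that of the kept AT cells (408 CPM).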

How the results depend on the processing

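The 3 ATF5 differences kept their order under every alternative run, from 2.81 to 3.72 for AT minus BM, 1.82 to 2.12 for AT minus PB and 0.99 to 1.62 for PB minus BM, the lowest with a pseudocount of 25 CPM. No difference past 1 turned its sign. Of the smaller ones, SESN2 in AT minus BM, and ATF4 and CHAC1 in AT minus PB, did so with TMM and other settings, and DDIT3 in AT minus BM, 0.23 as reported, was -0.05 in G1 cells. The count of members past 1 in AT over BM, 3 as reported, was 5 from barcodes with at least 500 UMIs (of 6155 AT barcodes under 2500 UMIs, 5279 have the sequence of a kept PB barcode, and whether their UMIs come from the AT culture was not tested), 5 with no upper UMI limit, 6 with TMM and 1 with a pseudocount of 25 CPM, which also took PB over BM from 5 to 1. It was 2 in G1 cells and without the lowest cluster of each source, where TRIB3 was at 0.81 and 0.98. Members with r of at least 0.1 with ATF5 numbered 0 in place of 2 in AT in thinned counts. In BM, in place of 1, they numbered 0 in thinned counts, 0 with Spearman's rho and 3 in G1 cells. Shares of all genes are not given for these counts of members, except 366 of 9105 genes in AT over BM with TMM. The median r over the BM pairs was 0.0383 in thinned counts. Groups of 3 in place of quintiles took the AT count of members past 1 from 2 to 0, and G1 cells took the PB count of list genes from 2 to 0. Of 297 alternatives of single differences, 77 moved beyond counting error, as did 70 of 108 shares of cells, most of them with 2 UMIs or thinning. Without the barcodes shared between sources, none of 87 values moved. Library replicates are missing, which limits every comparison between sources. No paired analysis was possible because each source had 1 library.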
